A study of Homo sapiens with 8 samples.

Results

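Small nucleolar RNA (snoRNA) and microRNA (miRNA) host lncRNAs were 114 of the 60659 genes in the count table. A gene was taken as a host when its GENCODE biotype was lncRNA and its symbol was SNHG with a number, began with MIR and ended with HG, or was GAS5, DANCR or ZFAS1. This gave 31 snoRNA hosts and 83 miRNA hosts among 16763 lncRNA genes. MIR3171HG has such a symbol but another biotype, and EPB41L4A-AS1 was left out by the rule. The spans of 26 snoRNA hosts held 139 snoRNA genes of the table, 84 of them within SNHG14, and the spans of 81 miRNA hosts held 131 miRNA genes.

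A host gene is transcribed as a long RNA that carries small RNAs inside it. For snoRNAs the small RNA usually lies in an intron and is trimmed from it after splicing, after which it guides the chemical modification of ribosomal RNA, while the spliced host RNA is often short-lived. For miRNAs a hairpin in the long transcript is cut out by DROSHA with DGCR8 and then by DICER1, and the mature miRNA represses messenger RNAs that pair with its seed, bases 2 to 8 counted from its 5′ end. Several miRNAs, among them miR-124, miR-9 and miR-7, are known for their high levels in nervous tissue.

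RNA was measured by rRNA-depleted total RNA sequencing in SK-N-SH, a line derived from human neuroblastoma, with 4 groups and 2 biological replicates in each. All 8 libraries came from cells given 10 µM all-trans retinoic acid (ATRA), a differentiation signal, for 24 h. The parental group, labelled only as parental cells, received doxycycline (Dox), and the overexpression group received Dox and carried a Dox-inducible FLAG-tagged ZMYND8, a chromatin reader, introduced with a lentiviral vector. The KD control and ZMYND8 knockdown groups had no Dox in their labels. The study's methods describe lentiviral short hairpin RNA with selection doses for SH-SY5Y and neural stem cells. For SK-N-SH the paper describes a ZMYND8 knockout, and it does not say how the knockdown of these libraries was made. Overexpression was compared with parental, and knockdown with KD control. No empty vector is named for the parental cells, so an effect of the vector and of ZMYND8 cannot be told apart. What the KD control carried is not given in the sources used here.

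For ZMYND8 itself, parental had 3089 and 3612 counts and overexpression 220691 and 182849. KD control had 3128 and 3374 and knockdown 1641 and 1640, so the libraries matched their labels. Library totals ran from 38316523 to 56256979 counts on genes. The libraries of the 2 experiments stood apart: mitochondrial genes took 2.92 to 3.41% of the counts in the knockdown experiment and 0.110 to 0.168% in the overexpression experiment. The 8 markers of the adrenergic state of neuroblastoma summed to 307.2 to 309.9 CPM (counts scaled to a common library size) in parental, 780.4 to 823.0 in overexpression, 570.7 to 595.5 in KD control and 460.3 to 514.7 in knockdown. The 7 of the mesenchymal state summed to 5782 to 5844, 2209 to 2410, 3120 to 3171 and 3674 to 3852. With overexpression 7 of 7 adrenergic markers tested passed as higher and 6 of 7 mesenchymal markers as lower, and with knockdown 3 of 6 adrenergic markers as lower and 3 mesenchymal markers as higher and 2 as lower of 7. These lists moved with the miRNA hosts below, and their part in those results was not tested. TH, which makes the precursor of noradrenaline, had 0 to 5 counts in any library, while DBH was present in all. The 6 markers of other cell types summed to 2.02 to 3.93 CPM in all libraries, with PTPRC and ALB at 0 to 5 counts.

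The miRNA hosts whose change the results turn on carry the mature miRNAs below, given 5′ to 3′ from RefSeq (GRCh38.p14), with the seed in capitals. They are shown because 2 pairs of hosts, MIR99AHG with MIR100HG and MIR9-1HG with MIR9-3HG, carry copies of the same or nearly the same small RNAs.
miR-99a-5p: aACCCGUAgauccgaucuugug
miR-100-5p: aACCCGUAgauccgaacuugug
let-7c-5p: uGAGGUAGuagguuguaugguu
let-7a-5p: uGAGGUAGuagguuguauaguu
miR-125b-5p: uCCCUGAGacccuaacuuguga
miR-9-5p: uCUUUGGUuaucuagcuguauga
miR-7-5p: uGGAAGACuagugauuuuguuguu
miR-221-3p: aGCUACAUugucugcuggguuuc
miR-222-3p: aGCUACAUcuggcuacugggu
miR-146a-5p: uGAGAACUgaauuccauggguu

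MIR99AHG, on the plus strand of chromosome 21 (15928296 to 16645467), carries miR-99a (16539101 to 16539122), let-7c (16539838 to 16539859) and miR-125b (16590253 to 16590274). MIR100HG, on the minus strand of chromosome 11 (122028325 to 122556721), carries miR-100 (122152275 to 122152296), let-7a (122146568 to 122146589) and the other copy of miR-125b (122099809 to 122099830). Between miR-99a and miR-100, 1 of 22 bases differs, as does 1 of 22 between let-7c and let-7a, in each case outside the seed. The sequence of miR-9-5p is the same from MIR9-1HG on chromosome 1 and MIR9-3HG on chromosome 15. MIR222HG on chromosome X (45745211 to 45770274, minus strand) carries miR-221 and miR-222, which share a seed. Mature miRNAs are too short to be read from fragmented, randomly primed RNA, so the values below are those of the long host RNAs.

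With overexpression miRNA hosts moved in both directions. Of the 43 that could be tested, 17 passed as higher and 13 as lower than in parental. Passed here means a Benjamini-Hochberg adjusted p, taken over all genes in the quasi-likelihood test of edgeR, that was below 0.05. Over all 20835 genes tested, 31.7% passed as higher and 29.1% as lower. In either direction 69.8% of the miRNA hosts tested passed, against 60.8% of all genes. The median log2 fold change was 0.40 for the miRNA hosts and 0.03 for all genes. The median of the miRNA hosts was 0.12 without overexpression replicate 2, 0.24 without parental replicate 1 and 0.22 with all 8 libraries in 1 fit, so its size rests on single libraries. Past a 2-fold change as well, with a mean normalized count above 20, were 9 higher and 5 lower miRNA hosts, against 11.8% and 6.84% of all genes.

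Of the hosts past the 2-fold rule, those of miR-124 had the highest folds upward. MIR124-1HG and MIR124-2HG are hosts of miR-124, which represses non-neuronal genes. MIR124-1HG had 5 and 15 counts in parental and 402 and 353 in overexpression, 115 and 87 in KD control and 93 and 104 in knockdown. MIR124-2HG had 1 and 3 counts in parental, 102 and 88 in overexpression, 39 and 39 in KD control and 21 and 35 in knockdown. For both genes the parental libraries were far below the other 6. The log2 fold change with overexpression was 5.19 ± 0.25 (SE, n = 2 per group, edgeR adjusted p = 3.26e-08) for MIR124-1HG. For MIR124-2HG it was 5.44 ± 0.39 (edgeR adjusted p = 7.07e-07), and since its parental counts are so few, the ratio of summed counts was 46.0 with a 95% interval of 17.7 to 171.0 (exact, counting error only).

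The miR-9 hosts rose together. MIR9-1HG had normalized counts of 20.2 and 26.0 in parental and 111.1 and 176.9 in overexpression, a log2 fold change of 2.61 ± 0.29 (edgeR adjusted p = 2.08e-05). MIR9-3HG had 32.6 and 28.8 against 172.9 and 181.3, a log2 fold change of 2.53 ± 0.20 (edgeR adjusted p = 1.495e-06). The overexpression replicates of MIR9-1HG lay further apart than those of MIR9-3HG. MIR7-3HG, a host of miR-7, had 5.61 and 4.64 normalized counts in parental and 43.9 and 70.99 in overexpression, a log2 fold change of 3.45 ± 0.42 (edgeR adjusted p = 4.05e-05).

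The hosts of the paralogous miR-99a and miR-100 clusters moved in opposite directions. Normalized counts of MIR99AHG were 131.3 and 111.4 in parental and 551.0 and 580.0 in overexpression, a log2 fold change of 2.22 ± 0.13 (edgeR adjusted p = 1.05e-07). Those of MIR100HG were 2251 and 2065 in parental and 873.5 and 909.8 in overexpression, a log2 fold change of -1.27 ± 0.07 (edgeR adjusted p = 5.11e-08). So the 2 long RNAs that carry the miR-125b sequence printed above changed by 4.67-fold upward and 2.42-fold downward. In CPM per kilobase of exon, counts scaled by library and divided by length, MIR100HG was 1.65 and 1.503 in parental and 0.63 and 0.66 in overexpression, and MIR99AHG was 0.064 and 0.054, then 0.27 and 0.28. MIR100HG thus stayed the higher of the pair in every library, at 2.03 and 2.07 against 0.25 and 0.28 in KD control and at 1.61 and 1.496 against 0.23 and 0.19 in knockdown.

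Among the hosts that fell, MIR4280HG had the largest fold. Its counts were 88 and 117 in parental and 4 and 4 in overexpression, a log2 fold change of -4.68 ± 0.33 (edgeR adjusted p = 5.59e-07). MIR222HG, host of miR-221 and miR-222, which are known for repressing the cell cycle inhibitor CDKN1B, had normalized counts of 569.1 and 553.2 in parental and 150.5 and 118.0 in overexpression. Its log2 fold change was -2.05 ± 0.13 (edgeR adjusted p = 3.13e-07). Reads on the MIR221 gene row, which come from precursor or host RNA, fell by 2.19 ± 0.33 on the log2 scale (edgeR adjusted p = 0.000203). Of 4 nested miRNA genes tested with overexpression, 2 passed as lower, MIR221 among them, where 29.1% of all genes did. MIR503HG, host of miR-503, had 142.6 and 149.4 normalized counts against 41.2 and 41.5, a log2 fold change of -1.82 ± 0.20 (edgeR adjusted p = 1.56e-05). MIR4435-2HG had 2145 and 2179 against 818.0 and 643.3, a log2 fold change of -1.56 ± 0.09 (edgeR adjusted p = 1.68e-07).

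**Figure D1:**
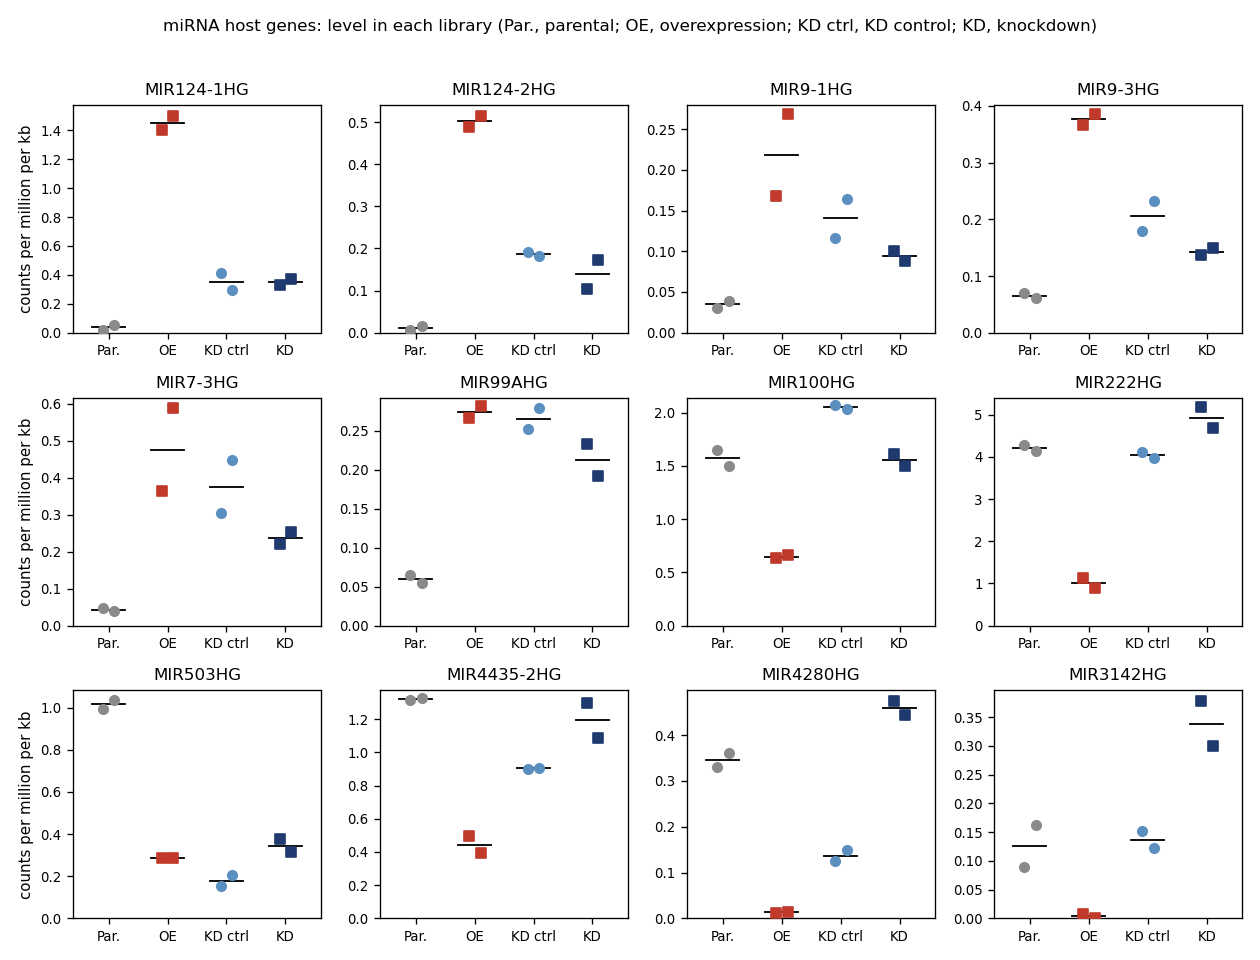
Level in each library of 12 miRNA hosts, in CPM per kilobase of exon on linear axes that start at 0 and differ between panels, with 1 point per library and a line at the mean of the 2 libraries of a group. The hosts of miR-124, miR-9, miR-7 and miR-99a are lowest in the parental libraries, while MIR100HG, MIR222HG, MIR4435-2HG, MIR4280HG and MIR3142HG are lowest in the overexpression libraries.

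The other hosts past the 2-fold rule were all higher. MIR210HG, host of the hypoxia-associated miR-210, had 9 and 16 counts in parental and 46 and 29 in overexpression, a log2 fold change of 1.53 ± 0.35 (edgeR adjusted p = 0.00328), and 91.8% of the 31-base stretches of its exons are repeated on an alternate contig of the reference. The call of MIR210HG was lost with DESeq2 in place of edgeR. MIR600HG had normalized counts of 328.9 and 273.8 against 723.0 and 729.6, a log2 fold change of 1.27 ± 0.11 (edgeR adjusted p = 2.75e-06). MIR4458HG had 159.4 and 176.4 against 345.8 and 363.7, a log2 fold change of 1.08 ± 0.13 (edgeR adjusted p = 3.37e-05). In all 3 genes both overexpression libraries lay above both parental libraries. These genes were picked for passing in this comparison, so this is a description.

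Of the let-7 hosts, MIRLET7BHG had 992.3 and 1069 normalized counts in parental and 843.0 and 790.7 in overexpression, a log2 fold change of -0.34 ± 0.08 (edgeR adjusted p = 0.00334). MIRLET7A1HG had 212.1 and 211.6 against 180.1 and 204.2, and did not pass (-0.14 ± 0.14 on the log2 scale, edgeR adjusted p = 0.400). MIR22HG, host of miR-22, had 26 and 32 counts against 14 and 17, a log2 fold change of -0.94 ± 0.34 (edgeR adjusted p = 0.0364). MIR22HG lost the call with DESeq2 in place of edgeR, with upper quartile scaling and with a replicate block. Leaving out parental replicate 1, parental replicate 2 or overexpression replicate 1 each cost it the call too. All 31-base stretches of its exons are repeated on an alternate contig. MIR17HG, host of the growth-promoting miR-17 to miR-92a cluster, did not pass at 138.1 and 132.7 against 156.8 and 159.5 normalized counts (0.22 ± 0.15 on the log2 scale, edgeR adjusted p = 0.234). MIR155HG, host of the immune cell miR-155, had 0 counts in 7 libraries and 3 in the other.

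MIR646HG, singled out after its values were seen, had 12 and 20 counts in overexpression and 0 in each parental library. Against a floor of 3 counts over the parental group it was at least 10.3-fold higher. Apart from MIR137HG, described below, 12 other hosts passed. MIR3667HG (higher) and MIR365BHG (lower) had means below 20 normalized counts, and the other 10 lay between log2 fold changes of -0.89 (MIRLET7IHG) and 0.96 (MIR2052HG, which was 0.59 without parental replicate 1 and 1.51 without parental replicate 2).

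With knockdown 5 miRNA hosts were higher and 2 lower than in KD control of the 40 tested, against 13.4% higher and 10.8% lower of the 19789 genes tested. The median log2 fold change was -0.06, and -0.01 over all genes. It was 0.03 without KD control replicate 2 and -0.14 without knockdown replicate 1. MIR4280HG had 41 and 52 counts in KD control and 156 and 145 in knockdown, a log2 fold change of 1.74 ± 0.19 (edgeR adjusted p = 0.000126). MIR3142HG, whose span on chromosome 5 also holds the gene of miR-146a, a brake on inflammatory signalling, had 19 and 16 counts against 47 and 37, a log2 fold change of 1.31 ± 0.31 (edgeR adjusted p = 0.0113). These 2 were the only miRNA hosts past 2-fold, where 1.36% of all genes were higher and 0.596% lower by that rule. MIR3142HG did not pass with DESeq2 in place of edgeR, or without KD control replicate 2. In the overexpression experiment MIR3142HG had too few counts to test, 9 and 20 in parental and 1 and 0 in overexpression.

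Hosts that fell with overexpression were among those that rose with knockdown. MIR503HG had 24 and 34 counts in KD control and 59 and 49 in knockdown, a log2 fold change of 0.95 ± 0.27 (edgeR adjusted p = 0.0270). MIR4435-2HG had normalized counts of 1630 and 1648 against 2367 and 1971, a log2 fold change of 0.40 ± 0.08 (edgeR adjusted p = 0.00525). It was 0.27 without knockdown replicate 1, and still passed. MIR222HG had 604.5 and 587.5 against 770.8 and 689.3, a log2 fold change of 0.29 ± 0.09 (edgeR adjusted p = 0.0444). MIR503HG and MIR222HG each lost the call with DESeq2 in place of edgeR and with no filter on low counts. Both also lost it without KD control replicate 1, KD control replicate 2 or knockdown replicate 1. The MIR221 gene row did not pass with knockdown (-0.55 ± 0.38 on the log2 scale, edgeR adjusted p = 0.341).

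MIR100HG fell in both experiments. With knockdown it went from 3136 and 3097 to 2459 and 2269 normalized counts, a log2 fold change of -0.40 ± 0.06 (edgeR adjusted p = 0.000704). MIR137HG, host of the neuronal miR-137, was named after its values were seen because it was the other lower miRNA host, with 839.9 and 803.8 against 677.1 and 612.0 normalized counts (-0.35 ± 0.09 on the log2 scale, edgeR adjusted p = 0.0168). With overexpression its log2 fold change was -0.34 ± 0.11 (edgeR adjusted p = 0.0195). Its call was lost without KD control replicate 1, KD control replicate 2 or knockdown replicate 2, and with overexpression without replicate 1 of either group. The overexpression call was also lost with DESeq2 in place of edgeR.

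The hosts of miR-9, miR-7, miR-99a and miR-124, which rose with overexpression, did not pass with knockdown. MIR9-1HG had 84.5 and 120.2 normalized counts in KD control and 73.3 and 64.1 in knockdown (-0.58 ± 0.22 on the log2 scale, edgeR adjusted p = 0.0862). MIR9-3HG had 92.5 and 121.2 against 71.3 and 77.3 (-0.53 ± 0.20, edgeR adjusted p = 0.0870), and MIR7-3HG had 40.2 and 59.6 against 29.5 and 33.6 (-0.66 ± 0.28, edgeR adjusted p = 0.116). In these 3 genes both knockdown libraries lay below both KD control libraries. The share of all genes that did so was not counted, so this is a description. MIR99AHG had 572.3 and 636.5 against 533.5 and 436.1 (-0.32 ± 0.12, edgeR adjusted p = 0.0740), also without overlap. For MIR124-1HG the log2 fold change was 0.01 ± 0.21 and the libraries overlapped, and for MIR124-2HG it was -0.43 ± 0.31 (edgeR adjusted p = 0.356). MIR17HG, MIRLET7BHG, MIRLET7A1HG, MIR22HG, MIR600HG and MIR4458HG had log2 fold changes between -0.30 and 0.29 and did not pass. MIR210HG had 3 and 6 counts in KD control and 2 and 2 in knockdown and was not tested.

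**Figure D2:**
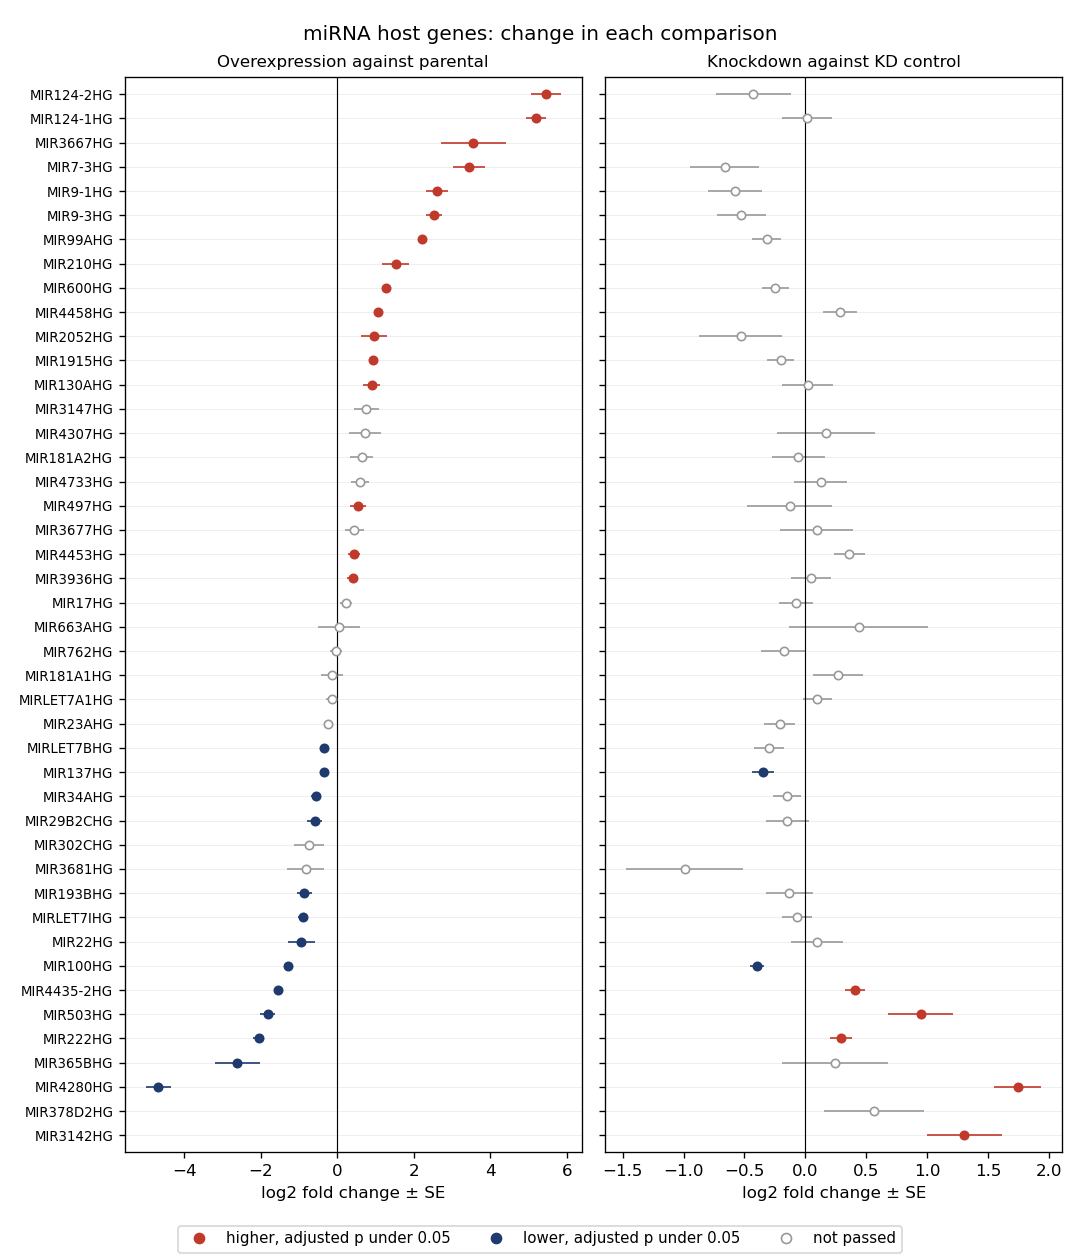
Log2 fold change ± SE of each miRNA host tested, with overexpression against parental on the left and knockdown against KD control on the right, on axes of different width. Filled points passed at an adjusted p under 0.05, open points did not, a missing point was not tested, and MIR646HG, at 0 counts in parental, is left out. MIR4435-2HG, MIR503HG, MIR222HG and MIR4280HG lie left of 0 in the first panel and right of 0 in the second, while MIR100HG and MIR137HG lie left of 0 in both.

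The difference between the 2 effects was tested in 1 model over all 8 libraries as the overexpression effect minus the knockdown effect. It passed for 12 miRNA hosts with a positive and 11 with a negative difference, of 45 tested, where 24.6% and 24.4% of 22619 genes passed. Past 2-fold as well were 9 positive and 5 negative miRNA hosts, where 11.1% and 7.66% of all genes were. For snoRNA hosts it passed for 6 positive and 5 negative of 28. Of the 38 miRNA hosts tested in both comparisons 19 had opposite signs, and of the 26 snoRNA hosts 12 did, 46.2%. Over all 18504 genes tested in both it was 56.8%.

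The 2 control groups differed in many miRNA hosts, as they did in most genes, although both were SK-N-SH cells with ATRA. Scaled together over all 8 libraries, 21 miRNA hosts were higher in both KD control libraries than in both parental libraries, 15 were lower and 9 overlapped, where 40.8% and 41.4% of all genes did not overlap in those directions. Levels per kilobase of MIR124-1HG were 0.022 and 0.054 CPM in parental and 0.41 and 0.29 in KD control. The means of the groups were in a ratio of 9.22 for MIR124-1HG, 17.6 for MIR124-2HG, 8.77 for MIR7-3HG, 4.49 for MIR99AHG, 4.0 for MIR9-1HG and 3.14 for MIR9-3HG, KD control over parental. For MIR503HG the ratio was 0.18 and for MIR4280HG 0.40. Each host of miR-124, miR-9, miR-7 and miR-99a that rose with overexpression thus had a parental level below that of KD control. These hosts were picked for a rise over the same parental libraries, which favours a low parental level, so this is a description. Of the other hosts higher past 2-fold, MIR210HG went the other way at a ratio of 0.32, and MIR600HG and MIR4458HG were at 1.34 and 1.61. These groups differ in experiment and in Dox by their labels, and what the KD control carried is not given. These differences cannot be told apart, and no test was made.

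The snoRNA hosts were more abundant than the miRNA hosts. Together they took 0.15% of the counts in each overexpression library and 0.112% in each parental library, 0.146 and 0.141% in KD control and 0.169 and 0.174% in knockdown, while the 83 miRNA hosts took 0.0197 to 0.0230% in any library. The 8 highest members per kilobase of exon were all snoRNA hosts. SNHG16 led, with 67.3 and 64.9 CPM per kilobase in parental, 79.6 and 77.4 in overexpression, 103.5 and 99.9 in KD control and 170.6 and 169.7 in knockdown. SNHG29 came next in all groups, between 43.1 and 55.5, with overlapping libraries in KD control and parental. GAS5, known for accumulating when growth stops, lay between 13.4 and 24.5.

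Below these, SNHG19 lay between 9.39 and 30.9, SNHG6 between 4.25 and 24.8, SNHG3 between 6.03 and 8.61, SNHG5 between 5.93 and 8.10 and SNHG8 between 3.54 and 8.72. SNHG3, SNHG5 and SNHG8 are neighbours whose ranges overlap, so their order is not fixed by these libraries. The order of hosts also depends on the annotated exon length, 342 bases for SNHG19 and 12604 for SNHG5. In KD control replicate 1 these 2 hosts had 382 and 4920 counts. SNHG1 was at 3.64 to 5.06, ZFAS1 at 0.82 to 3.37, DANCR at 1.15 to 2.71, SNHG12 at 1.14 to 1.96 and SNHG14, the long host of the imprinted snoRNA clusters on chromosome 15, at 0.80 to 1.29. SNHG32 had 0 to 3 counts in any library, and all 31-base stretches of its exons are repeated on an alternate contig, whose part in this was not tested.

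**Figure D3:**
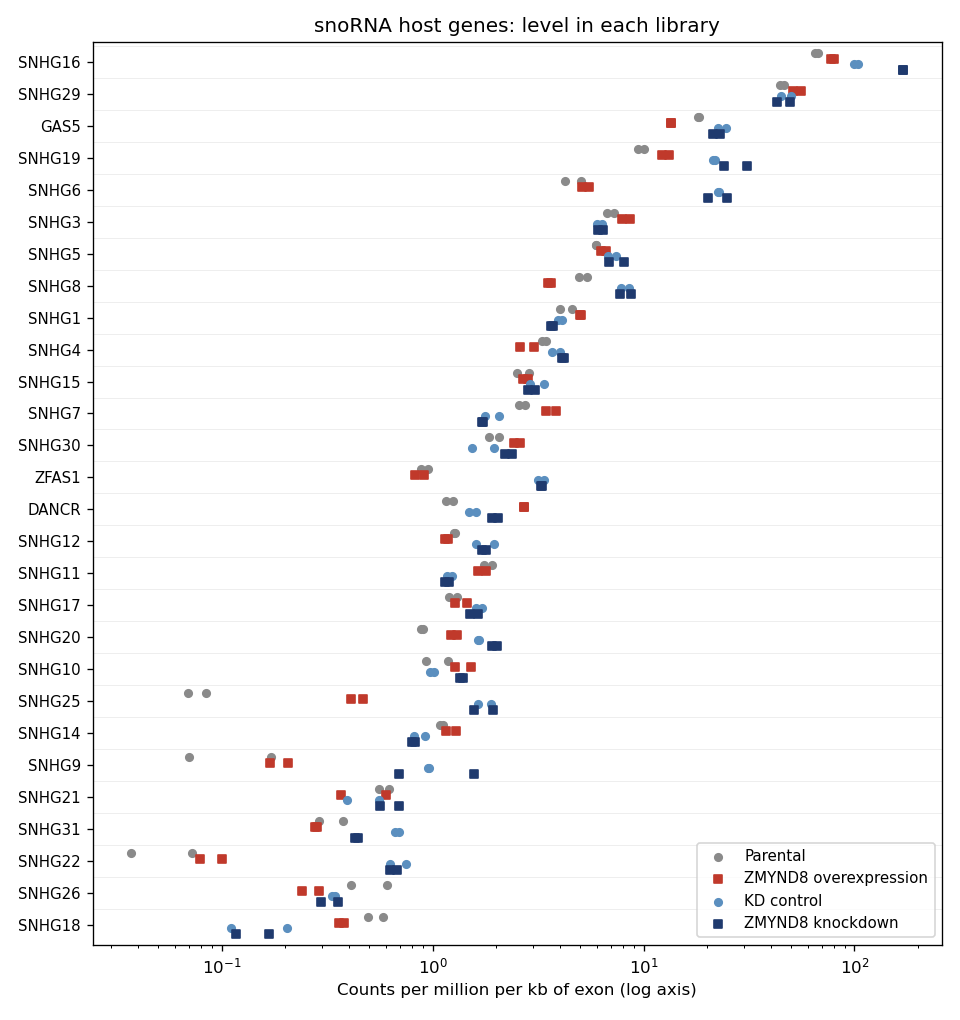
Level of each snoRNA host tested, in CPM per kilobase of exon on a log axis, with 1 point per library and the 4 groups in different colours and rows. SNHG16 is the highest in all 8 libraries, and SNHG6, SNHG19 and ZFAS1 are separated between the parental and overexpression libraries on one side and the KD control and knockdown libraries on the other.

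Many snoRNA hosts and ribosomal protein genes are known to share a promoter type in which transcription begins at a C followed by a run of C and T, the 5′ terminal oligopyrimidine start, which ties their RNA to translation. RefSeq starts (GRCh38.p14) were found for 27 of the 31 snoRNA hosts. A C followed by at least 4 bases that are each C or T stood at the start of 7 of the 27, 25.9%, against 4.07% of 35116 RefSeq starts, 58.5% of 82 ribosomal protein genes and 3.75% of 80 miRNA hosts. Shown here are 5 bases before to 20 bases from the annotated start, with the run of C and T in capitals. Of these hosts 4 had the match at that start and 3 did not.
SNHG12: agcgcCCTTTCTCCCCgccgcattc
SNHG5: tcggtCTTTTacgtcggccttcgcg
SNHG19: cctgtCTTTTCggggtcgagtccga
ZFAS1: tcgttCTTTCgcgtctgcggtgccc
DANCR: gccccgcccttgcccagagtcttcc
GAS5: aattcagatgtgtttattttggagc
SNHG16: gtctcgcgttcttttcgaggtcggc

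These windows lie at chromosome 1, 28581854 to 28581878 on the minus strand (SNHG12), chromosome 6, 85678714 to 85678738 minus (SNHG5), chromosome 16, 2155339 to 2155363 minus (SNHG19) and chromosome 20, 49278637 to 49278661 plus (ZFAS1). DANCR is at chromosome 4, 52712389 to 52712413 plus, GAS5 at chromosome 1, 173869026 to 173869050 minus, and SNHG16 at chromosome 17, 76557759 to 76557783 plus. A start annotated off its true place, even by a few bases, would lose the match. The GAS5 window lies upstream of the span over which GAS5 was counted (173858559 to 173868882). The windows of SNHG3 and SNHG14 also lie outside their counted spans. For these hosts the absence of a match does not show that the counted RNA lacks the start. Of 6 hosts with the start that were tested in each comparison, 1 was higher and 1 lower with overexpression, at a median log2 fold change of -0.10, and with knockdown 0 passed in edgeR, 1 having an unadjusted p below 0.05, at a median of 0.04. The 18 hosts without the match at the annotated start, GAS5, SNHG3 and SNHG14 among them, had medians of 0.24 and -0.04.

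Overexpression changed the snoRNA hosts by small folds. Of 26 tested, 10 were higher and 4 lower, and the share that passed in either direction was 53.8%, against 60.8% of all genes. The median log2 fold change was 0.15, and 0.08 with the trend over gene length taken out. DANCR, a lncRNA known for holding progenitor cells undifferentiated, was the only one past 2-fold. It had normalized counts of 603.9 and 562.5 in parental and 1331 and 1320 in overexpression, a log2 fold change of 1.19 ± 0.07 (edgeR adjusted p = 2.23e-07).

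Of the others, SNHG16 had 17230 and 16700 against 20580 and 19940 normalized counts, a log2 fold change of 0.26 ± 0.05 (edgeR adjusted p = 0.000914). SNHG29 had 15140 and 15910 against 17740 and 19140, a log2 fold change of 0.25 ± 0.05 (edgeR adjusted p = 0.00252). The folds of these abundant hosts were 1.20 and 1.19. SNHG1, SNHG3, SNHG14 and SNHG19 passed as higher at log2 fold changes of 0.24, 0.25, 0.16 and 0.39. SNHG1 was at 0.15 without parental replicate 2 and also lost the call without overexpression replicate 1. SNHG14 was at 0.08 without overexpression replicate 1, lost the call without either parental replicate too, and turned to -0.11 when a trend of fold changes over gene length was taken out. SNHG3 lost the call without parental replicate 1 or overexpression replicate 1, and SNHG19 without parental replicate 1, parental replicate 2 or overexpression replicate 2. The other higher hosts, SNHG7, SNHG10 and SNHG20, had log2 fold changes of 0.46, 0.41 and 0.52. SNHG10 was at 0.24 without parental replicate 1 and lost the call without it or overexpression replicate 1. With DESeq2 in place of edgeR, SNHG1, SNHG10, SNHG14 and SNHG19 lost the call.

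GAS5 and SNHG8 fell. GAS5 had 4225 and 4233 normalized counts in parental and 3138 and 3147 in overexpression, a log2 fold change of -0.43 ± 0.05 (edgeR adjusted p = 2.06e-05). SNHG8 had 1565 and 1703 against 1129 and 1152, a log2 fold change of -0.52 ± 0.07 (edgeR adjusted p = 5.34e-05). The replicates of both lay close together relative to the change. In SNHG8, 37.6% of the exon bases overlap exons on the other strand, and without a stated strand setting in the counting such reads cannot be told apart. The other lower hosts were SNHG26 at a log2 fold change of -0.93, which was -0.62 without parental replicate 2, and SNHG4 at -0.25. SNHG4 did not pass without parental replicate 1, parental replicate 2 or overexpression replicate 2, and was -0.14 without the last. Nor did SNHG4 pass with DESeq2 in place of edgeR.

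SNHG5, SNHG6, SNHG12 and ZFAS1 did not pass. SNHG5 had 3596 and 3583 normalized counts against 3816 and 4005 (0.12 ± 0.05 on the log2 scale, edgeR adjusted p = 0.0548). SNHG6 had 299.7 and 254.3 against 330.6 and 304.7 (0.20 ± 0.13), SNHG12 had 260.4 and 258.1 against 243.7 and 233.7 (-0.12 ± 0.12) and ZFAS1 had 351.3 and 378.7 against 364.6 and 328.8 (-0.07 ± 0.11).

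With knockdown most snoRNA hosts did not pass, and SNHG16 stood out. Of 28 tested, 3 were higher and 1 lower, 14.3% in either direction against 24.3% of all genes, and the median log2 fold change was -0.00, or -0.06 to 0.07 with 1 library left out. SNHG16, which carries snoRNAs in its introns and is known for its rise in neuroblastoma and other tumours, had normalized counts of 29340 and 28520 in KD control and 48790 and 48190 in knockdown. Its log2 fold change of 0.75 ± 0.05 (edgeR adjusted p = 5.64e-06) was larger than with overexpression, and the difference of the effects was -0.49 ± 0.07 (edgeR adjusted p = 3.32e-05). SNHG16 took 36.8 and 37.5% of all snoRNA host counts in KD control and 51.2 and 48.9% in knockdown, and 30.6% of its exon bases overlap exons on the other strand.

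DANCR and SNHG10 also rose with knockdown. DANCR had 863.0 and 801.9 against 1039 and 1097 normalized counts, a log2 fold change of 0.36 ± 0.08 (edgeR adjusted p = 0.00848), which did not pass without KD control replicate 2. SNHG10 had 290.7 and 282.7 against 405.2 and 390.4, a log2 fold change of 0.47 ± 0.11 (edgeR adjusted p = 0.0121), and also lost the call without KD control replicate 2. SNHG31 had 89.5 and 94.2 against 60.1 and 58.0, a log2 fold change of -0.64 ± 0.20 (edgeR adjusted p = 0.0374), and lost the call when any of the 4 libraries was left out. The call of SNHG31 was also lost with DESeq2 in place of edgeR. SNHG10 and SNHG31 were named after their values were seen.

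The other hosts named did not pass. GAS5 had 6267 and 5813 normalized counts in KD control and 5528 and 5896 in knockdown (-0.08 ± 0.06 on the log2 scale), and SNHG29 had 19020 and 17200 against 16480 and 18750 (-0.04 ± 0.07). SNHG8, SNHG6, ZFAS1, SNHG3, SNHG12, SNHG5, SNHG14 and SNHG1 had log2 fold changes between -0.13 and 0.07, each with an SE of 0.06 to 0.12. SNHG19 had 384.2 and 399.0 against 437.8 and 560.2 and did not pass (0.35 ± 0.13, edgeR adjusted p = 0.0737). The libraries of the 2 groups overlapped for all of these but SNHG1 and SNHG19.

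**Figure D4:**
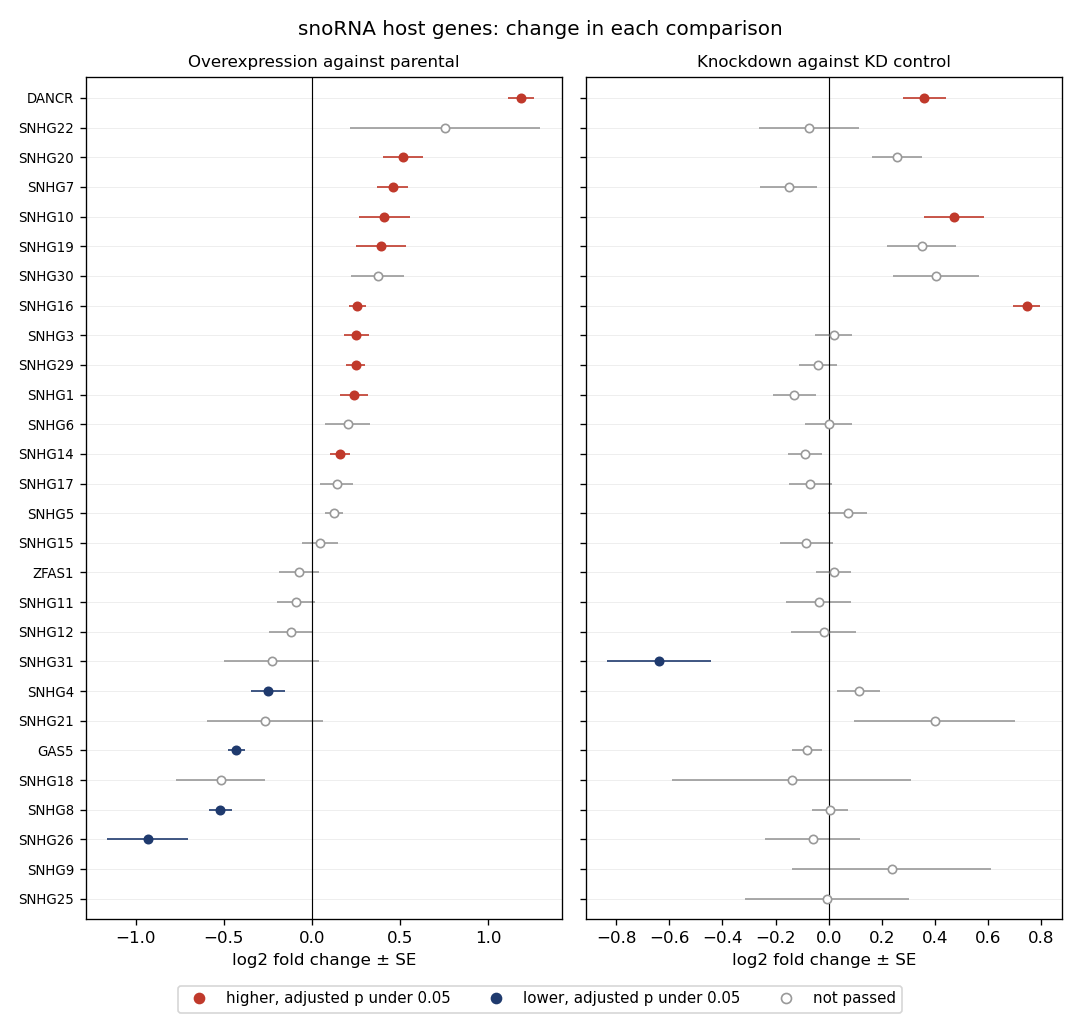
Log2 fold change ± SE of each snoRNA host tested, with overexpression against parental on the left and knockdown against KD control on the right, on axes of different width. Filled points passed at an adjusted p under 0.05 and open points did not. DANCR lies furthest right with overexpression, at 1.19, and SNHG16 with knockdown, at 0.75.

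Between the control groups, 17 snoRNA hosts were higher in both KD control libraries than in both parental libraries, 6 were lower and 5 overlapped, where 40.8% of all genes were higher and 41.4% lower. SNHG6 was at 5.04 and 4.25 CPM per kilobase in parental and 22.4 and 22.8 in KD control, a ratio of means of 4.87. ZFAS1 was at 0.89 and 0.95 against 3.37 and 3.15, a ratio of 3.55, and SNHG19 at 10.0 and 9.39 against 21.3 and 21.9, a ratio of 2.22. SNHG25, noticed after its values were seen, was at 0.085 and 0.070 against 1.64 and 1.89, a ratio of 22.9. That ratio is imprecise, since SNHG25 had 1 and 1 counts in parental and 24 and 29 in KD control. Of its exon bases, 48.6% overlap another gene on the same strand. Counts on all snoRNA genes, 191215 to 255835 per library in the knockdown experiment and 4177 to 5798 in the overexpression experiment, moved with these ratios, and their part was not tested. The snoRNA genes nested in the hosts summed to 1899 to 3731 and to 311 to 441 counts, and 125 to 127 of the 139 had no count in any given library, so they say little about the mature snoRNAs. With knockdown 6 nested snoRNA genes could be tested and 2 passed as higher, where 13.4% of all genes did. They were SNORA73B in SNHG3 (0.66 ± 0.17 on the log2 scale, edgeR adjusted p = 0.0191) and SNORA74A in SNHG4 (1.0992 ± 0.22, edgeR adjusted p = 0.00455), both named after their values were seen. SNORA73B had 1663 and 1980 counts in KD control and 2098 and 3448 in knockdown, most of the nested counts there, and its knockdown replicates lay far apart. With overexpression 4 nested snoRNA genes were tested at edgeR adjusted p-values of 0.224 to 0.687.

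Genes that work with the hosts were read from fixed lists. Of the miRNA processing genes, 7 were higher and 5 lower of 16 with overexpression and 6 higher and 2 lower with knockdown. DICER1 rose by 0.47 ± 0.05 on the log2 scale with overexpression (edgeR adjusted p = 1.65e-05), while DROSHA changed by -0.29 ± 0.06 (edgeR adjusted p = 0.00107) and DGCR8 by -0.32 ± 0.06 (edgeR adjusted p = 0.000538). With knockdown DICER1 changed by 0.18 ± 0.05 and DROSHA by 0.22 ± 0.05, and DGCR8 did not pass. The 18 proteins that form or assemble snoRNA particles had 2 higher and 7 lower with overexpression and 7 higher with knockdown. The 14 factors of nonsense-mediated decay, which degrades several spliced snoRNA host RNAs, had 1 higher and 7 lower, and 3 higher with knockdown. Of the cytosolic ribosomal proteins 49 were higher and 1 lower of 79 with overexpression, and 20 and 1 of 80 with knockdown. These counts stand beside 31.7% higher and 29.1% lower of all genes with overexpression and 13.4% and 10.8% with knockdown.

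Regulators known for some hosts moved as well. REST, which represses the miR-124 and miR-9 genes outside neurons, had 6535 and 7597 counts in parental and 5402 and 4200 in overexpression, a log2 fold change of -0.61 ± 0.05 (edgeR adjusted p = 2.29e-06), and did not pass with knockdown (0.11 ± 0.05). MYCN had 5 and 1 counts in parental and 93 and 58 in overexpression, and 0 to 4 in the knockdown experiment. MYC rose with knockdown by 0.75 ± 0.09 on the log2 scale (edgeR adjusted p = 0.000234) and did not pass with overexpression (-0.20 ± 0.16). LARP1, which binds oligopyrimidine starts, changed by -0.23 on the log2 scale with overexpression. EPB41L4A-AS1, the snoRNA host that was left out, did not pass in either comparison, at log2 fold changes of 0.15 and 0.14. Whether any of these genes took part in the changes of the hosts was not tested.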

How the data were processed

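Total RNA of 8 SK-N-SH libraries was rRNA-depleted and sequenced. According to the methods, the authors trimmed reads with Trim_Galore, aligned them to GRCh38 with Hisat2 and counted them with featureCounts on a GENCODE annotation. The submitters' processing notes name hg38, HISAT2 and DESeq2. The deposited values are raw counts per gene with no normalization. Of 60662 lines 3 belonged to 1 gene split over several lines and were left out. Identifiers were matched to GENCODE release 44 for symbols, biotypes and overlaps (60418 of 60659 found). The strand setting of the counting is not given in the sources used here.

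Counts were filtered with filterByExpr, scaled by TMM and given a two-sided quasi-likelihood F test in edgeR 4.0.16 (with limma 3.58.1 under R 4.3.3), each comparison on its own 4 libraries and the difference of effects in a model over all 8. Adjusted p-values are Benjamini-Hochberg over all genes tested. Passed means an adjusted p below 0.05, and the 2-fold rule also asks for a log2 fold change of 1 or more in size and for more than 20 normalized counts on average. Normalized counts are on the scale of the mean library of each comparison, and levels per kilobase are CPM, scaled by TMM over all 8 libraries, divided by exon length. The replicates are biological per the labels, with 2 per group, and differed by more than counting noise in every group (chi-square per degree of freedom 6.05 to 8.86). The 95% interval and the floor of 3 counts cover counting error only, since reads carried no molecular identifiers. Members at or under 10 counts in every library were 3 snoRNA hosts and 37 miRNA hosts, and 15 miRNA hosts had no count.

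Genes named are the members past the 2-fold rule in either comparison, the 8 with the highest level per kilobase and a fixed list of 24, 34 in all. Members and lists were chosen with earlier results of these data known. Alternatives were other scalings, DESeq2 1.42.0, no filter, length and GC trends, a replicate block, all libraries in 1 fit and each library left out. The fits were tested on simulated data.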

Additional observations from a re-analysis of the deposited data

Results flagged for a closer look

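For 23 of the hosts named, the effect of overexpression and that of knockdown differed from each other in the model over all 8 libraries (edgeR adjusted p below 0.05), where 49.0% of all 22619 genes tested passed. Many of the 34 hosts named were chosen for passing the 2-fold rule in one of these comparisons, which favours a difference, so the count is a description. The values here are log2 differences, the overexpression effect minus the knockdown effect. The largest negative differences were those of MIR4280HG (-6.43), MIR3142HG (-5.90), MIR503HG (-2.77), MIR222HG (-2.35) and MIR4435-2HG (-1.97). MIR3142HG rests on 1 and 0 counts in the overexpression libraries, so its size is imprecise. The difference was -1.04 for MIR22HG and -0.88 for MIR100HG. Of these, MIR22HG lost the call with DESeq2, with upper quartile scaling and when any of 6 of the 8 libraries was left out.

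Positive differences were largest for MIR124-2HG (5.87), MIR124-1HG (5.17), MIR7-3HG (4.11), MIR9-1HG (3.19), MIR9-3HG (3.05), MIR210HG (2.59) and MIR99AHG (2.54), followed by MIR600HG (1.51) and MIR4458HG (0.78). MIR210HG had 2 to 6 counts in the libraries of the knockdown experiment, and lost the call with DESeq2 and when any of 5 of the 8 libraries was left out. Among snoRNA hosts the differences were smaller, at 0.82 for DANCR, 0.36 for SNHG1, 0.28 for SNHG29 and 0.24 for SNHG14, and at -0.53 for SNHG8, -0.49 for SNHG16 and -0.35 for GAS5. SNHG16 and DANCR rose in both comparisons, and MIR100HG fell in both, so for these the difference is one of size. The call of SNHG1 was lost with DESeq2, with no filter and without 3 of the 8 libraries. That of SNHG29 was lost under 4 other settings and without 4 of the 8 libraries, its value being 0.18 without knockdown replicate 1. That of SNHG14 was lost under 5 other settings and without 6 of the 8 libraries, its value being 0.16 without overexpression replicate 1 and 0.14 without KD control replicate 2.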

How the results depend on the processing

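Counts of hosts that passed depended on the tool and on single libraries, and the direction of hosts named reversed once, for SNHG14 with overexpression, at -0.11 when the trend over gene length was taken out. With DESeq2 in place of edgeR, 6 snoRNA hosts were higher with overexpression, 0 snoRNA hosts were lower and 2 miRNA hosts higher with knockdown, and the difference passed for 6 snoRNA hosts. With no filter on low counts 0 snoRNA hosts were lower, 3 miRNA hosts higher and 1 lower with knockdown, and with the length trend, or length and GC trends, taken out 2 snoRNA hosts were lower with knockdown. Under the 2-fold rule in place of passed, overexpression left 1 snoRNA host higher and 0 lower and 9 miRNA hosts higher and 5 lower, knockdown left 0, 0, 2 and 0, and the difference left 0 snoRNA and 14 miRNA hosts. Restricting the lists to members that share no exon base with another gene (4 snoRNA and 28 miRNA hosts) left 1 and 0 snoRNA hosts and 8 and 3 miRNA hosts higher and lower with overexpression, 0 snoRNA hosts higher and 2 and 0 miRNA hosts with knockdown, and 0 and 9 with a difference. Fewer genes entered these counts, and for the other settings the cause was not tested.

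With each library left out in turn, the counts with overexpression were 6 to 9 snoRNA hosts higher, 3 to 4 lower, 12 to 16 miRNA hosts higher and 10 to 14 lower. With knockdown they were 1 to 5 and 0 to 0 for snoRNA hosts and 2 to 7 and 1 to 6 for miRNA hosts, and for the difference 6 to 9 and 17 to 21. The fewest higher snoRNA hosts came without parental replicate 1 (6) with overexpression and without KD control replicate 2 (1) with knockdown, and the most with knockdown came without knockdown replicate 1 (5), which also gave the 6 lower miRNA hosts. In every refit run, 7 of the 14 snoRNA hosts and 21 of the 30 miRNA hosts that passed with overexpression passed again, as did 1 of 4 and 3 of 7 with knockdown.

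Replicate numbers are shared between groups, but the labels do not say that they mark a pair. Deviations from the group means correlated at 0.0917 between parental and overexpression and at 0.206 between KD control and knockdown, over 13533 genes. With a replicate block 5 snoRNA hosts were higher with knockdown in place of 3, and 12 in place of 10 with overexpression, and the other counts stayed within 1.5 times.

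Depth limits the miRNA hosts most, since 37 of 83 had 10 counts or fewer in every library.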
